A study of Homo sapiens with 4 samples.

Results

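The OAS genes, OAS1, OAS2, OAS3 and OASL, were examined through the ATAC-seq peaks that overlapped their gene bodies in GENCODE GRCh38 or the 10 kb upstream of them. This rule took 27 of the 250225 peaks listed over 4 libraries. They were 4 of 59629 peaks in untreated and 10 of 67470 in IFN-γ-treated wild-type cells, and 6 of 63203 in untreated and 7 of 59923 in IFN-γ-treated FLI1-knockout cells. Merged across the libraries they formed 10 regions. ATAC-seq cuts and tags open DNA with a transposase, so that a peak marks accessible chromatin. The cells were HK1, an established human nasopharyngeal carcinoma line, and were either wild type (WT) or knocked out for the ETS-family transcription factor gene FLI1 with a guide RNA (sgFLI1, also FLI1-KO). Each genotype was left untreated or exposed to interferon-γ (IFN-γ), for a day as the study gives it. The labels give no dose, and no source used here says whether the knockout line was 1 clone. The 4 groups held 1 library each, which leaves no replicate spread to judge a difference by, and groups were therefore not tested against each other.

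The OAS genes encode interferon-induced sensors of double-stranded RNA. On binding such RNA, the enzymes OAS1, OAS2 and OAS3 link ATP into 2′-5′-oligoadenylates, the messenger molecules of an antiviral RNA decay response. OASL lacks this enzyme activity and carries ubiquitin-like domains, through which it acts on RNA sensing by RIG-I. Interferons open and transcribe such genes through STAT and IRF transcription factors, and IRF proteins bind DNA with repeated GAAA letters.

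OAS1, OAS3 and OAS2 lie side by side on chromosome 12 on the plus strand. OAS1 (ENSG00000089127.15) spans positions 112905856 to 112933219, OAS3 (ENSG00000111331.14) spans 112938051 to 112976460, and OAS2 (ENSG00000111335.14) spans 112978395 to 113011723. OASL (ENSG00000135114.14) lies farther along the same chromosome on the minus strand, at 121017763 to 121039246. The start of each gene was taken as that of its canonical transcript.

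The DNA at these starts is shown because all 4 genes carry the same short IRF-type sequence there. The letters AANNGAAA, in capitals, were searched on both strands in the 30 bases from 18 before to 11 after the first transcribed base, and each line reads 5′ to 3′ along the gene in GRCh38. The lines stand for chr12:112906944-112906973 (OAS1, plus strand), chr12:112938456-112938485 (OAS3, plus strand), chr12:112978501-112978530 (OAS2, plus strand) and chr12:121039235-121039264 (OASL, minus strand), and each includes the first bases of a 5′ UTR.
OAS1 start: ggAAACGAAAccaacagcagtccaagctca
OAS3 start: gggcgggaAAACGAAAccagaaatccgaag
OAS2 start: gagaggcctctagacttcagTTTCAGTTtc
OASL start: agAATCGAAActgatgacagattgactaga
With the first transcribed base as 0, the match began at -16 in OAS1 and in OASL and at -10 in OAS3, on the strand of the gene. In OAS2 it ran from 2 to 9 on the opposite strand, so its letters appear reversed and complemented. The match was present in 4 of 4 OAS genes and in 1.87% of the 19970 protein-coding genes in the same 30-base window. The stricter paired GAAA (GAAA, 2 bases, GAAA), each copy of which also holds AANNGAAA, was present in OAS3 and OAS2, against 0.371% of those genes. AANNGAAA and this window were both picked with the OAS start sequences already known, and the paired GAAA shares use the same window. The 4 of 4 was thus set by that choice, and neither OAS share tests for an excess over all genes. A match is a description of the letters, not of a bound factor.

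OAS1 and OAS3 each had a further AANNGAAA match upstream of the start. It lay within chr12:112906898-112906927 for OAS1 and within chr12:112938318-112938347 for OAS3, where 2 overlapping matches shared a paired GAAA. Of 35116 RefSeq promoters of 300 bases, 22.8% held AANNGAAA and 3.57% held paired GAAA.
OAS1 upstream: gtctgatttgcaAAAGGAAAgtgcaaagac
OAS3 upstream: gctagaaagAAACGAAACTGAAAgcaggga
Some regions away from the starts carried other letters. The region upstream of OAS1 and the region in intron 2 of OAS2 held the core letters recognised by the insulator protein CTCF (CCA, 2 bases, AG, 2 bases, GG, on either strand). The region in intron 8 of OAS2 held TGANTCA, recognised by AP1 factors. Within 100 bp of a summit, 15.0% to 16.8% of all peaks of a library held the CTCF core and 21.9% to 24.3% held TGANTCA. The peaks in intron 5 of OAS2 and in introns 1 and 4 of OASL held none of the searched letters at that distance. For the OAS1 upstream, intron 2 and intron 8 regions, the 150 bases around the highest summit are shown with their matched letters in capitals. That summit was in WT-IFN-γ for the former pair and in sgFLI1-IFN-γ for intron 8. The lines stand for chr12:112900442-112900591, chr12:112992889-112993038 and chr12:113007228-113007377, all on the plus strand.
OAS1 upstream region: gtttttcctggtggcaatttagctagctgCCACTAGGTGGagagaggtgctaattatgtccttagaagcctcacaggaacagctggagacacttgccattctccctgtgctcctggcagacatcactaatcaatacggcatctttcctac
OAS2 intron 2 region: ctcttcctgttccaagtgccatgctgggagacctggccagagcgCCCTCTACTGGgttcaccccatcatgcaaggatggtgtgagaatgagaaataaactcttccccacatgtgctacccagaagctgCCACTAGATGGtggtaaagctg
OAS2 intron 8 region: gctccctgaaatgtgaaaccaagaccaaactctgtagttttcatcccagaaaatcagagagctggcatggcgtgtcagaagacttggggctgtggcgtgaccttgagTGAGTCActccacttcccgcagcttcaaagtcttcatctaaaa

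Each peak is given by the number of tags piled up at its summit, which could be worked back from the peak caller's fold and −log10 p for 100% of the peaks, with an exact Poisson 95% interval. Because libraries differed in depth, pileups were compared after division by the tag density of the library, which was 8.04 tags per kb in WT and 8.84 with IFN-γ, and in FLI1-KO 6.93 untreated and 6.86 with IFN-γ. Ratios carry an exact 95% interval for counting error only. The median over all 39419 peaks found in all 4 libraries stood at 0.953 for WT-IFN-γ to WT and at 0.906 for sgFLI1-IFN-γ to sgFLI1, a log2 shift of -0.14 in the latter. A missing peak is not missing accessibility, since at the library background a summit of under 7 or 8 tags could not be listed. Of 7 epithelial marker genes, 4 or 5 had a peak at the start in each library, and KRT14 and TP63 had none. Of 7 lymphoid or myeloid markers, 1 did (CD14). A peak list does not check the FLI1 genotype.

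In WT cells the starts of all 4 OAS genes had a higher summit pileup with IFN-γ than without: OAS1 and OAS2 had a start peak only with IFN-γ, and OAS3 and OASL stood 2.25-fold and 3.07-fold higher. In FLI1-KO cells OAS2 gained a weak start peak, OAS1 gained none, and the ratios at OAS3 and OASL had intervals that included 1. After IFN-γ, every OAS start was lower in the FLI1-KO than in the WT library. At OAS3, OAS2 and OASL this was by more than counting error, while OAS1 has only a lower bound without an interval, which rests on an assumed listing limit. In bulk cells, fewer responding cells and a smaller opening in each cell cannot be told apart.

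**Figure D1:**
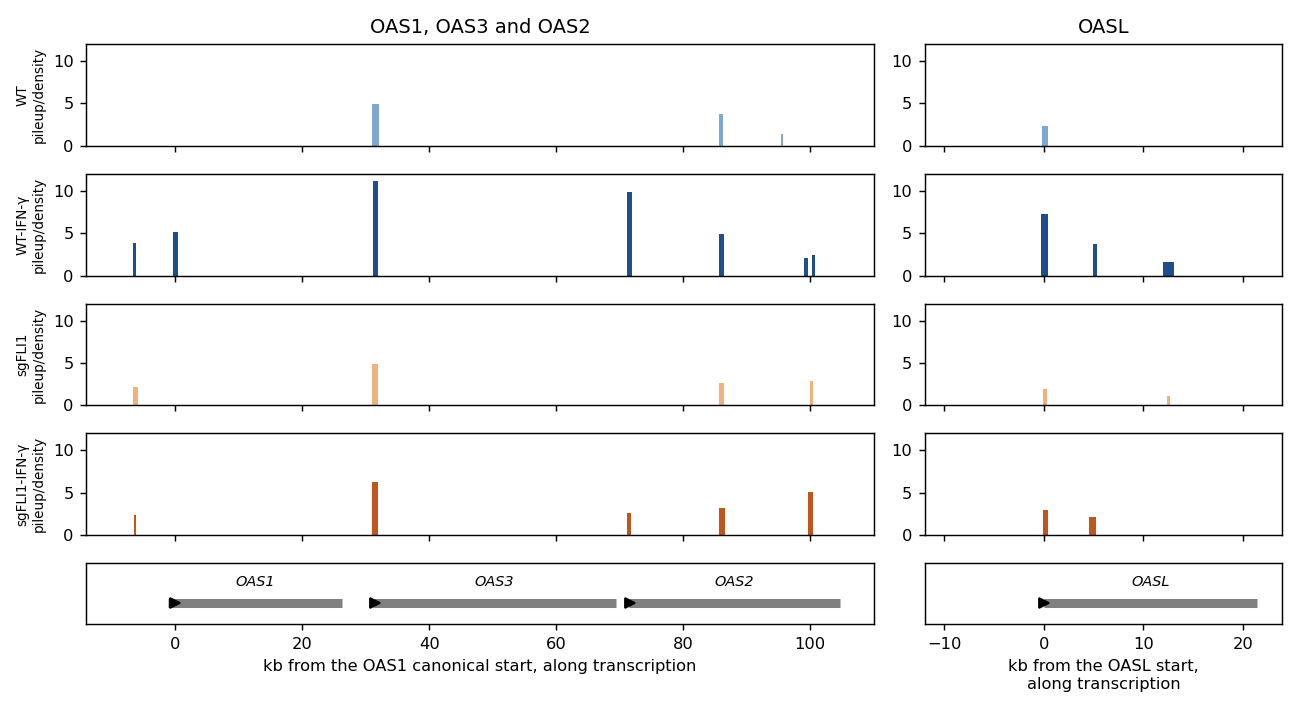
Peaks of the OAS loci in the 4 libraries, with distance from the start of OAS1 (left) or OASL (right) in kb on the x axis and summit pileup divided by tag density on the y axis. Each bar is a listed peak at its own width, grey bars are gene bodies and arrowheads are canonical starts. WT-IFN-γ has start peaks at all 4 genes, with OAS3 at 11.2 and OAS2 at 9.84, and no other library has a start peak at OAS1.

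At the OAS1 start, the gene of the synthetase with a single OAS unit, WT-IFN-γ listed a peak of 45 tags (32.8 to 60.2) with its summit 7 bp into the UTR of exon 1, and the other 3 libraries listed none. This start was the only one of the 4 with a peak in a single library. At the local background, scaled for depth, a summit of 12 tags would have reached the lowest listed −log10 p of WT, and one of 10 tags that of sgFLI1-IFN-γ. Against these listing limits, the WT-IFN-γ value was at least 3.41-fold higher than in WT and at least 3.49-fold higher than in sgFLI1-IFN-γ. Such lower bounds, here and below, take the pileup as counted and leave out counting error. They also assume that −log10 p alone decided which peaks were listed.

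At the start of OAS3, which encodes the largest of the synthetases, the summit held 40 tags (28.6 to 54.5) in WT and 99 (80.5 to 121) with IFN-γ, against 34 (23.5 to 47.5) in sgFLI1 and 43 (31.1 to 57.9) with IFN-γ. WT-IFN-γ alone stood apart, and the intervals of the other 3 overlapped. Per tag density the levels were 4.97, 11.2, 4.90 and 6.27. The level with IFN-γ was 2.25-fold (1.55 to 3.34) that without it in WT, at percentile 98.9 of the 49258 peaks shared between these libraries. In FLI1-KO the ratio was 1.28 (0.796 to 2.07), an interval that includes 1. The untreated libraries stood at a ratio of 1.01 (0.626 to 1.65), WT to sgFLI1, while the treated ones stood at 1.79 (1.24 to 2.62). The ratio of the response in WT to that in FLI1-KO was 1.76, with an interval of 0.986 to 3.15 that includes 1.

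At the OAS2 start, WT-IFN-γ held 87 tags (69.7 to 107) and sgFLI1-IFN-γ held 18 (10.7 to 28.4), and neither untreated library listed a peak. This gene, which sits last in the cluster, had the lowest sgFLI1-IFN-γ to WT-IFN-γ ratio of the shared OAS peaks. The treated libraries differed 3.75-fold (2.24 to 6.62), WT over FLI1-KO, and seen from FLI1-KO the peak lay at percentile 0.237 of the 46911 shared ones. With IFN-γ the level was at least 4.17-fold higher in WT, where 19 tags would have been listed untreated, and at least 2.02-fold higher in FLI1-KO, where 9 tags would have been. The summits lay at -18 bp in WT-IFN-γ and at -95 bp in sgFLI1-IFN-γ.

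At the OASL start, the summit held 19 tags (11.4 to 29.7) in WT and 64 (49.3 to 81.7) with IFN-γ, against 13 (6.92 to 22.2) in sgFLI1 and 20 (12.2 to 30.9) with IFN-γ. As at OAS3, WT-IFN-γ lay above the intervals of the other 3 libraries, which overlapped. The level with IFN-γ was 3.07-fold (1.81 to 5.42, percentile 99.7) that without it in WT. In FLI1-KO the ratio was 1.55 (0.736 to 3.40), which includes 1. WT exceeded FLI1-KO by 2.48-fold (1.48 to 4.33) with IFN-γ and had a ratio of 1.26 (0.590 to 2.77) without it. The ratio of the responses was 1.97 (0.830 to 4.69). The WT-IFN-γ summit lay 58 bp and the sgFLI1-IFN-γ summit 214 bp into the gene.

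**Figure D2:**
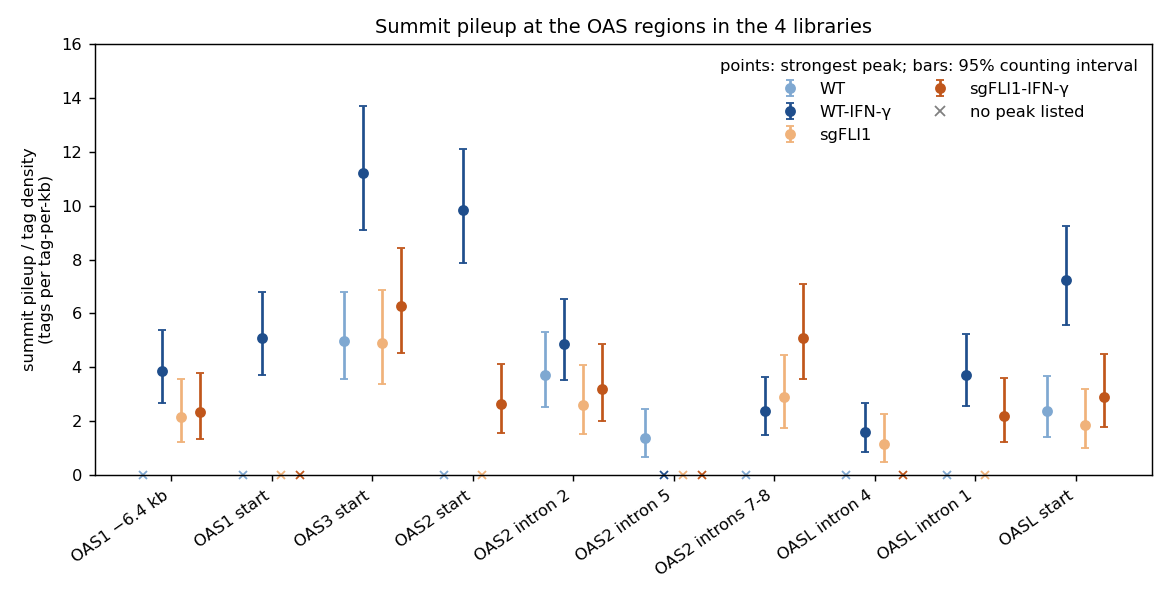
Summit pileup divided by tag density (y axis) at the 10 OAS regions (x axis) in the 4 libraries. Points are the strongest peak of a library in a region, bars are exact Poisson 95% intervals that cover counting error only, and crosses at 0 mark libraries with no listed peak. WT-IFN-γ is highest at the 4 starts, while at OAS2 introns 7-8 sgFLI1-IFN-γ is highest at 5.10.

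In WT-IFN-γ the order of the start levels was OAS3 at 11.2 per tag density, OAS2 at 9.84, OASL at 7.24 and OAS1 at 5.09. The intervals of OAS3 and OAS2 overlapped, as did those of OAS2 and OASL and those of OASL and OAS1. In sgFLI1-IFN-γ, OAS3 at 6.27 stood above OASL at 2.92 and OAS2 at 2.62, whose intervals overlapped each other, and OAS1 was unlisted. In the untreated libraries only OAS3 and OASL had start peaks, in the same order in both genotypes.

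Away from the starts, the OAS regions in WT-IFN-γ had lower pileups than the starts. The intervals upstream of OAS1, in intron 2 of OAS2 and in intron 1 of OASL overlapped that of the OAS1 start. In the other libraries some regions exceeded the OASL start. In sgFLI1-IFN-γ, intron 8 of OAS2 at 5.10 per tag density and intron 2 at 3.21 also exceeded the OAS2 start at 2.62. Upstream of OAS1, in a region with summits at -6460 to -6443 bp, WT listed no peak and WT-IFN-γ one of 34 tags (23.5 to 47.5), whereas FLI1-KO held 15 (8.40 to 24.7) untreated and 16 (9.15 to 26.0) with IFN-γ. The level was thus alike in the FLI1-KO libraries, with a ratio of 1.08 (0.499 to 2.34) for IFN-γ, and all 3 peaks held the CTCF core letters. Intron 2 of OAS2, which also held them, was open in every library, with 30 tags (20.2 to 42.8) in WT and 43 (31.1 to 57.9) with IFN-γ, and with 18 (10.7 to 28.4) in sgFLI1 and 22 (13.8 to 33.3) with IFN-γ. Here the IFN-γ ratios, 1.30 (0.800 to 2.15) in WT and 1.24 (0.632 to 2.44) in FLI1-KO, had intervals that included 1.

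In introns 7 and 8 of OAS2, the treated libraries differed in the opposite direction from the starts at the intron 8 summit. WT listed no peak there, WT-IFN-γ listed 2 of 18 tags (10.7 to 28.4) and 21 tags (13.0 to 32.1), sgFLI1 listed 1 of 20 (12.2 to 30.9) and sgFLI1-IFN-γ listed 1 of 35 (24.4 to 48.7). Between the treated libraries, the intron 8 summits lay 12 bp apart and sgFLI1-IFN-γ was 2.15-fold (1.22 to 3.88) higher. IFN-γ gave a ratio of 1.77 (0.993 to 3.23) in FLI1-KO, with an interval that includes 1.

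The remaining 3 regions were seen in only 1 or 2 libraries. Intron 5 of OAS2 held a peak of 11 tags (5.49 to 19.7) in WT alone. Intron 1 of OASL held 33 tags (22.7 to 46.3) in WT-IFN-γ and 15 (8.40 to 24.7) in sgFLI1-IFN-γ, and the sgFLI1-IFN-γ level was 0.586 times (0.296 to 1.11) the WT-IFN-γ level. Intron 4 of OASL held 14 tags (7.65 to 23.5) in WT-IFN-γ and 8 (3.45 to 15.8) in sgFLI1, the weakest of all the OAS peaks.

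Counted as peaks, 7 of the 10 OAS peaks in WT-IFN-γ were gained, meaning that they shared no base with a WT peak (70.0%, Wilson 95% interval 39.7 to 89.2), beside 25.2% of all WT-IFN-γ peaks. They lay at the starts of OAS1 and OAS2, upstream of OAS1, in introns 7 and 8 of OAS2 and in introns 1 and 4 of OASL. Of 4 WT peaks, 1 was lost, beside 15.9% of all. In FLI1-KO, 2 of 7 OAS peaks were gained (28.6%, 8.22 to 64.1), beside 18.0% of all, at the start of OAS2 and in intron 1 of OASL. Of 6 sgFLI1 peaks, 1 was lost, beside 22.2% of all. By gene, OAS1, OAS2 and OASL gained a region in WT, or 3 of 4 beside 32.0% of 19970 protein-coding genes, and OAS2 and OASL did in FLI1-KO, or 2 of 4 beside 22.9%. These counts are small and their intervals wide, and the difference between genotypes in the gained share was not tested. The Wilson intervals treat peaks as independent, though some are neighbours, and hold no spread between replicates.

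Between genotypes, 2 of 10 WT-IFN-γ peaks at the OAS genes had no sgFLI1-IFN-γ partner, beside 29.0% of all, and 0 of 7 sgFLI1-IFN-γ peaks lacked a WT-IFN-γ partner, beside 19.8% of all. In the untreated libraries, 1 of 4 WT peaks had no sgFLI1 partner, beside 21.4% of all, and 3 of 6 sgFLI1 peaks had no WT partner, beside 25.3% of all. Of the 7 OAS peaks gained in WT, 2 had no peak in sgFLI1-IFN-γ (28.6%, 8.22 to 64.1), beside 74.1% of all 16999 gained peaks. This count depended on the settings, being 4 of 7 with an overlap of at least 50% of the shorter peak (beside 75.6% of all) and 5 of 5 with −log10 q of at least 10 in every list (beside 75.1% of all). The other 5 overlapped 4 sgFLI1-IFN-γ peaks, since a single peak matched both introns 7 and 8 of OAS2. Set against WT-IFN-γ, the treated FLI1-KO pileup was lower by more than counting error at the OAS2 start and higher at the intron 8 summit.

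Among peaks that had a single partner in the other library, 2 of 3 at the OAS genes were at least 2-fold higher in WT-IFN-γ than in WT, beside 1.80% of all such peaks. In FLI1-KO, 0 of 5 were, beside 0.210% of all. Between the treated libraries, 2 of 6 were at least 2-fold lower in FLI1-KO, beside 3.29% of all, and all 6 lay below 1, from 0.267 to 0.659 with a median of 0.573 beside 0.986 for all shared peaks. Intron 8 of OAS2 is not among these 6, as its sgFLI1-IFN-γ peak overlapped both WT-IFN-γ peaks. In the surrounding chromosome, the median sgFLI1-IFN-γ to WT-IFN-γ ratio of the 184 peaks within 5 Mb of the cluster was 1.00 and that of the 246 peaks within 5 Mb of OASL was 0.951.

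**Figure D3:**
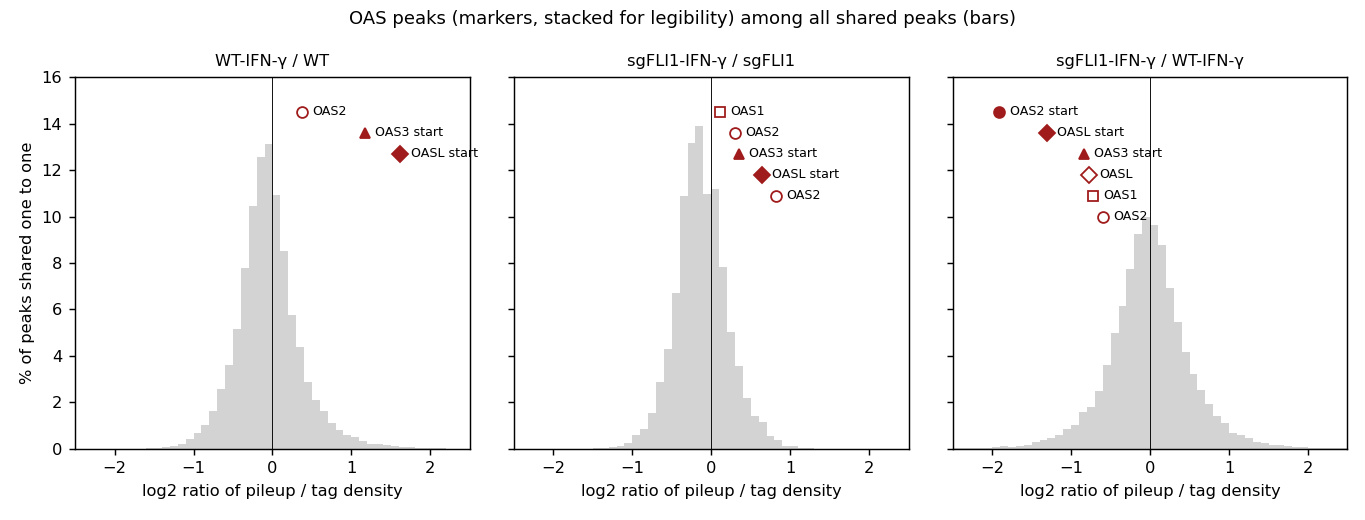
Percent of peaks with a single partner (grey bars, y axis) by log2 ratio of summit pileup per tag density (x axis) in 3 pairs of libraries, with OAS peaks as red markers at their own ratio and at arbitrary heights. Filled markers are start peaks and open markers are other regions. The OAS3 and OASL starts lie at 1.17 and 1.62 in WT, at 0.35 and 0.64 in FLI1-KO, and all 6 OAS peaks lie below 0 between the treated libraries.

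Recognition letters near the summits were counted within 100 bp on both strands. They were read from the reference genome, so counts differ between libraries only by which peaks were listed and where summits lay. In untreated and then treated WT cells, paired GAAA was present in 1 of 4 and 2 of 10 OAS peaks, beside 2.35% and 5.60% of all peaks. In FLI1-KO it was present in 1 of 6 and 1 of 7, beside 2.24% and 2.67% of all. It lay at the OAS3 start in all 4 libraries and at the OAS2 start in WT-IFN-γ, and 13.4% of all peaks gained in WT held it. The OAS2 start peak of sgFLI1-IFN-γ also covered it, but not wholly within 100 bp of the summit. AANNGAAA, in the same order of libraries, was present in 2, 4, 2 and 1 OAS peaks, beside 18.3%, 22.9%, 16.6% and 17.9% of all, and in WT-IFN-γ these were the 4 start peaks. In sgFLI1-IFN-γ the start peaks of OAS2 and OASL covered AANNGAAA too, but not wholly within 100 bp of their summits. The ETS letters CCGGAAGT were present in 0 of the 27 OAS peaks, beside 1.28% to 1.42% of all peaks. The CTCF core was present in 1, 2, 2 and 2 of the OAS peaks, beside 16.8%, 15.1%, 15.0% and 15.5% of all. TGANTCA was present in 1 OAS peak of each treated library, both in intron 8 of OAS2, beside 23.5% of all peaks in WT-IFN-γ and 23.2% in sgFLI1-IFN-γ. The sgFLI1 peak in intron 8 of OAS2 also covered TGANTCA, more than 100 bp from its summit. TTCNNNGAA, recognised by STAT dimers, was present in 1 of the 27 OAS peaks, in intron 2 of OAS2 in sgFLI1-IFN-γ, beside 6.03% of all peaks of that library. The intron 2 peaks of all 4 libraries covered these letters, which lay within 100 bp of the summit in sgFLI1-IFN-γ alone.

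Other genes of the pathway were described by the regions they gained or lost. Among all 19970 protein-coding genes, 32.0% gained a region in WT and 22.9% in FLI1-KO, while 21.5% lost one in WT and 28.0% in FLI1-KO. ABCE1, PDE12, which encodes an enzyme that degrades oligoadenylates, and CNP gained no region in either genotype, and CNP lost one in FLI1-KO.

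Among the interferon factors, IRF1 gained 2 regions and lost 2 in WT, and gained 2 and lost 1 in FLI1-KO. STAT2 gained 1 in WT and lost 1 in FLI1-KO. IRF9 and IRF7 gained and lost none. At the IRF1 start, 112 tags piled up in WT and 172 with IFN-γ, while both FLI1-KO libraries had 122, which gave an IFN-γ ratio of 1.40 (1.10 to 1.79) in WT. Per tag density the treated libraries stood at 19.5 in WT and 17.8 in FLI1-KO, a ratio of 1.09 (0.863 to 1.39) that includes 1.

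Of 7 other sensors of foreign nucleic acid, 3 gained a region in WT (DHX58, IFIH1 and ZC3HAV1) and 2 in FLI1-KO (CGAS and EIF2AK2), or 42.9% and 28.6% beside 32.0% and 22.9% of all protein-coding genes. EIF2AK2 and IFIH1 lost a region in WT, and RIGI lost one in FLI1-KO, or 28.6% and 14.3% beside 21.5% and 28.0% of all protein-coding genes. The start of IFIH1, which encodes the RNA sensor MDA5, held 58 tags in WT and 107 with IFN-γ, and 55 in sgFLI1 and 39 with IFN-γ. It was 2.13-fold (1.46 to 3.16) higher in WT-IFN-γ than in sgFLI1-IFN-γ. The same ratio was 2.12 (1.34 to 3.46) at DHX58 and 1.48 (1.12 to 1.96) at ADAR, while at RIGI, CGAS, EIF2AK2 and ZC3HAV1 it was 1.00 to 1.25 with intervals that include 1.

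The OAS genes were set beside the IFIT genes, whose products bind viral RNA, and the guanylate-binding protein genes, which encode interferon-induced GTPases. The share of WT-IFN-γ peaks that were gained was 70.0% (39.7 to 89.2) for OAS, 30.8% (12.7 to 57.6) for IFIT with 4 of 13 and 66.7% (39.1 to 86.2) for the guanylate-binding protein genes with 8 of 12. All 3 intervals overlapped, but they carry the limits given above for Wilson intervals and do not test the families against each other. Of the peaks gained in WT, those lacking an sgFLI1-IFN-γ peak numbered 2 of 7 for OAS, 3 of 4 for IFIT and 5 of 8 for the guanylate-binding protein genes, again with overlapping intervals. At the starts, the WT-IFN-γ to sgFLI1-IFN-γ ratio was 1.79 to 3.75 at OAS3, OASL and OAS2, 0.955 to 1.75 at the 4 IFIT genes with a start peak and 1.55 to 3.70 at GBP1, GBP2 and GBP3. GBP4 with 33 tags and GBP6 with 30 tags had, like OAS1, a start peak in WT-IFN-γ only, and no ratio was formed for them.

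**Figure D4:**
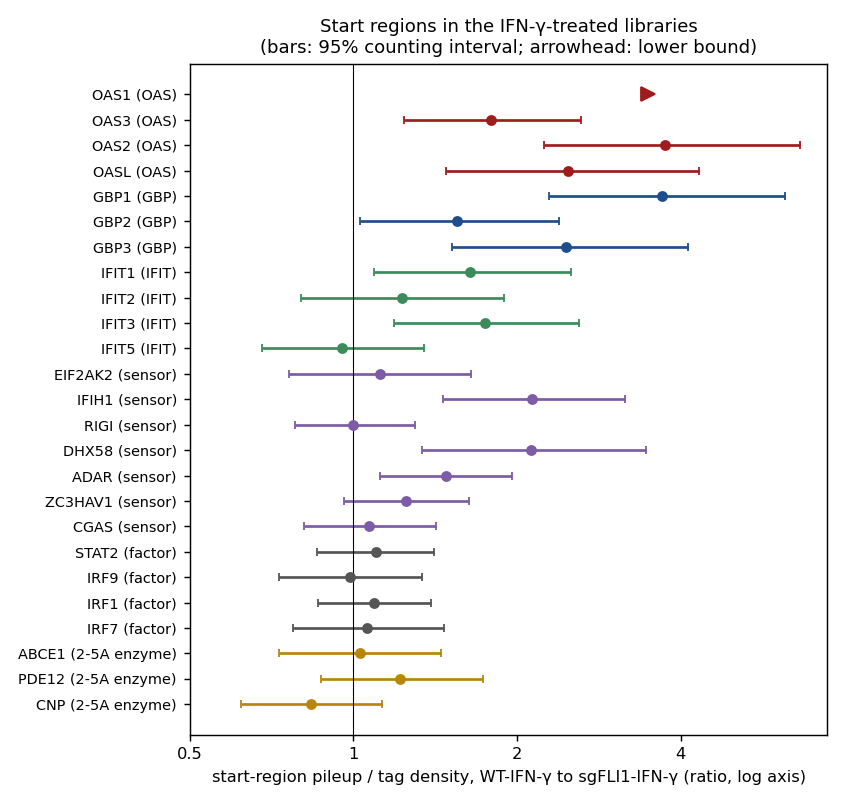
Ratio of start-region summit pileup per tag density, WT-IFN-γ to sgFLI1-IFN-γ, on a log axis, for OAS genes, the compared families and other genes of the pathway. Points are ratios, bars are exact 95% intervals for counting error and the arrowhead is the lower bound at OAS1. GBP4 and GBP6, which also had a start peak in WT-IFN-γ only, are not shown. OAS3, OAS2 and OASL lie at 1.79, 3.75 and 2.48 with intervals above 1.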

How the data were processed

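As the labels and the methods of the study give it, the authors trimmed reads (Trimmomatic 0.3), aligned them to GRCh38 (Bowtie2 2.3.4.1), removed low-quality alignments and duplicates, and called peaks with MACS2 2.1.2. The largest q in a list was 0.0499. Whether a list comes from 1 replicate or pooled ones, from before or after the named reproducibility filter (IDR), and whether tags were shifted for the transposase are not given in the sources used here. Each list was treated as 1 library.

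The values deposited by the authors for a peak are a score, the fold over local background (a ratio), −log10 p, −log10 q and the summit offset. The pileup, a whole number of tags, was solved from the deposited fold and −log10 p within a tolerance of 0.001. Tag density is the library background divided by tag length, and serves as depth because read totals are not in the lists. Neither is given there: the smallest local background of a list was taken as the former and its narrowest peak width as the latter. Where a library had no peak, the smallest pileup that reached its lowest listed −log10 p at the local background, scaled for depth, gave a lower bound. A limit on peak width or a reproducibility filter could have left out higher summits, so the bounds hold only if neither did. No interval is reported for these bounds. PCR duplicates had been removed without molecular identifiers, so intervals cover counting error only.

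Peaks were shared if they overlapped by at least 1 bp. A peak went to the gene holding its summit, else to the gene with the nearest start. Start regions were 1000 bp to each side of the canonical start in GENCODE v44. Every OAS peak is reported. Other genes were named where they gained or lost a region, or by a start ratio. Lists were ABCE1, PDE12 and CNP, then STAT2, IRF9, IRF1 and IRF7, then EIF2AK2, IFIH1, RIGI, DHX58, ADAR, ZC3HAV1 and CGAS, the IFIT and GBP families, neighbours within 100 kb and cell type markers. Some genes of these lists are not reported here. Members, lists and alternatives were chosen with earlier results of these data known. The AANNGAAA and CTCF searches, the 30-base window and the depth alternative were added after seeing the data. Sequences were read from the GRCh38 genome by coordinates. Steps were tested on simulated data. Scripts used scipy 1.17.1, numpy 2.4.6 and pandas 2.3.3 under Python 3.11.15, with figures from matplotlib 3.10.9.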

Additional observations from a re-analysis of the deposited data

Results flagged for a closer look

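Intron 4 of OASL was listed on opposite sides of the IFN-γ contrast in the 2 genotypes, with pileups close to the listing limit. In WT cells a peak was listed after IFN-γ and not before, with 14 tags at its summit. In FLI1-KO cells a peak was listed before IFN-γ and not after, with 8 tags. The 2 summits lay at 12205 bp and 12656 bp into the gene. The difference was not tested, as each group held 1 library. In the libraries without a peak there, 7 to 9 tags would have reached the lowest listed −log10 p at the scaled background. By that limit the ratios were at least 1.42 in WT (IFN-γ to untreated) and at least 1.13 in FLI1-KO (untreated to IFN-γ). No interval is given for these bounds, and those of the pileups are wide, at 7.65 to 23.5 for 14 tags and 3.45 to 15.8 for 8 tags.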

How the results depend on the processing

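Of 76 recomputed values, 61 stayed within 1.5 times the reported count or inside the interval of the reported ratio, bound or share. The other 15 did not. For a lower bound, this was the Poisson interval of its pileup, scaled to the bound. Every recomputed start ratio or lower bound stayed above 1, but 2 comparisons of shares reversed, as given below. The intervals of shares are wide: within 250 bp of the summit, paired GAAA was present in 25.0% of OAS peaks in WT and 30.0% with IFN-γ, and in 33.3% in sgFLI1 and 42.9% with IFN-γ, against 25.0%, 20.0%, 16.7% and 14.3% within 100 bp. With −log10 q of at least 5, the OAS peaks lost after IFN-γ fell to 0 in WT and to 0 in FLI1-KO. With −log10 q of at least 10, OAS peaks numbered 2 in WT, 2 in sgFLI1 and 3 in sgFLI1-IFN-γ, those gained in FLI1-KO numbered 1, those lost numbered 0 in WT and 0 in FLI1-KO, and those gained in WT without an sgFLI1-IFN-γ peak numbered 5 of 5. This last share was above the 75.1% of all gained peaks at that limit, whereas 2 of 7 as reported was below 74.1%. The order of the treated libraries in paired GAAA also reversed between 100 bp and 250 bp. With 50 kb upstream, WT had 7 peaks, and 2 were lost in WT and 2 in FLI1-KO. With an overlap of at least 50% of the shorter peak, 4 peaks gained in WT had no sgFLI1-IFN-γ peak. With background subtracted, the lower bound for WT-IFN-γ to WT was 4.63 at the OAS1 start and 6.79 at the OAS2 start. The cause of these shifts was not tested.

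At the other library's depth, as added after seeing the data, all 7 peaks gained in WT, both gained in FLI1-KO and both without an sgFLI1-IFN-γ peak would still have reached the lowest listed −log10 p. WT-IFN-γ had 1.29 times the tag density of sgFLI1-IFN-γ. With 1 library per group, genotype, treatment, culture and library cannot be told apart. No paired analysis was possible because each group held 1 library and the labels give no shared replicate numbers.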

Other observations

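Among protein-coding neighbours within 100 kb of the OAS loci, DTX1 and RASAL1 had no start peak in any library. RPH3A had a start peak of 16 tags in WT, 11 in WT-IFN-γ and 11 in sgFLI1-IFN-γ and none in sgFLI1. P2RX7 had one in the WT libraries, of 22 tags untreated and 18 with IFN-γ, and none in the FLI1-KO libraries. The start of DHX58, which encodes the RNA sensor LGP2, went from no listed peak in WT to 71 tags in WT-IFN-γ, and from 19 tags in sgFLI1 to 26 in sgFLI1-IFN-γ.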
